A study of Drosophila melanogaster with 10 samples.

Results

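Septate junctions are the barrier-forming contacts between insect epithelial and glial cells, and 9 genes that build them or organise cell polarity beside them were followed here. All 9 were present among the 7624 genes of the deposited table: Atpalpha, nrv2, Nrg, Nrx-IV, cora, vari, dlg1, scrib and aPKC. They were chosen by name as known components, and not by a threshold on their values, although earlier results of these data were known when the set was drawn up.

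At a septate junction the sodium pump, the neurexin Nrx-IV and cell adhesion molecules of the immunoglobulin superfamily form a complex in the membrane. Cytoplasmic scaffold proteins of the FERM and MAGUK classes (membrane linkers and multi-domain organisers) tie that complex together. In the fly nervous system such junctions seal glia into a blood-brain barrier. The scaffolds encoded by dlg1 and scrib and the kinase encoded by aPKC act on opposite sides of the circuit that separates apical from basal membrane, and in neural stem cells they take part in asymmetric division.

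The cells were BG3 cells, a Drosophila line from the larval central nervous system. They received double-stranded RNA for RNA interference (RNAi) against Ph (3 libraries), RNAi against Sce (4 libraries) or a mock treatment (3 libraries), with a pair of RNAs against each target in most experiments. Ph (Polyhomeotic) and Sce, the fly RING1 homolog, are subunits of Polycomb repressive complex 1 (PRC1), best known for keeping developmental genes silent, and the series asks how PRC1 acts on genes that are active. Nascent RNA was isolated from chromatin in these 10 libraries, uncapped RNA was degraded and residual mRNA was removed with oligo(dT) beads before sequencing. The authors' deposited table gives a mean signal per group and gene, a ratio to mock, and a p and a q, and also ratios for total RNA after RNAi against Ph, Sce and Pc, another PRC1 subunit, from libraries outside the 10. Values per library were not analysed here, so means carry no standard deviation and replicate error enters through the deposited q alone. The words rose and fell are kept for a q under 0.05.

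The targeted genes were read as a check of the labels, and each was higher, not lower, under its own label. The authors' mean nascent signal of ph-p was 90923 in the libraries labelled Ph RNAi against 18685 in mock. That of ph-d was 57853 in Ph RNAi libraries and 10729 in mock, with q = 0.012 for ph-p and 0.053 for ph-d per the authors' deposited table. For Sce it was 293193 in the libraries labelled Sce RNAi against 2475 in mock (q = 0.377), and in total RNA labelled Pc RNAi the ratio of Pc was 21.5 (q = 0.13) per the authors' deposited table. In total RNA under their own labels, ph-p was at 8.64, ph-d at 8.09 and Sce at 27.0 times mock. Their q were 0.017, 0.028 and 0.198 per the authors' deposited table. A loss of the targets, the aim of RNAi, is thus not seen in these values. Every direction below therefore rests on the labels, and groups are named by them. Of the neuronal markers examined, 3 of 10 were in the table, among them elav with an authors' mock mean of 9594, and the other 7 were not analysed here. The 3 nascent columns summed to between 191793598 and 192278102, so a change shared by all genes cannot be seen.

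Mock cells gave nascent signal from all 9 genes, at very different levels. Across genes the signal grew with the length of the gene model (the slope of log2 signal on log2 length was 0.96 over the 7517 genes matched to the Ensembl BDGP6 annotation), so levels were compared per kilobase of gene model. Nrx-IV, the neurexin that anchors the junction, Atpalpha, the catalytic subunit of the sodium pump, and scrib, a scaffold with leucine-rich repeats and PDZ domains, had the highest mock signals per kilobase, at 7653, 7485 and 6723. These lay at percentiles 92.8, 92.6 and 91.6 of all matched genes. The FERM-domain scaffold gene cora and the kinase gene aPKC followed with 2888 and 2840 signal units per kilobase. The MAGUK gene dlg1 had 1250 and nrv2, which encodes a beta subunit of the sodium pump, had 1022. Lowest were vari, a MAGUK gene, with 696 and Nrg, the fly neuroglian and an L1-type adhesion molecule, with 329, at percentile 12.4. With no spread given, it cannot be said which neighbours in this order differ, and per kilobase of merged exons Atpalpha came first, before scrib and Nrx-IV, with Nrg still last. The genes lie on the chromosome arms X, 2L, 2R, 3L and 3R, so they do not form a cluster.

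The first question was which of these genes changed their nascent transcription in the libraries labelled Ph RNAi. Both sodium pump subunit genes and the adhesion gene Nrg rose between 4.11-fold and 6.73-fold, while the scaffold genes dlg1 and scrib and the neurexin gene Nrx-IV had ratios between 0.98 and 1.05. In all, 3 of the 9 rose and 0 fell at q under 0.05, against 1.69% of all genes that rose and 0.787% that fell. At an unadjusted p under 0.05, 6 of the 9 were higher and 0 lower, where the shares of all genes were 9.82% and 6.66%. These shares run over genes of every signal level. Not divided by length, the mock means of the 9 lay at percentiles 56.6 to 99.2 of matched genes. The median log2 ratio of the 9 was 0.99, beside 0.023 over all genes, on a scale with a pseudocount of 581 signal units added to each mean. In bulk samples such as these, more cells of a type and more RNA per cell cannot be told apart.

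The authors' mean nascent signal of Atpalpha was 846020 in the libraries labelled Ph RNAi, 183908 in those labelled Sce RNAi and 206025 in mock. It rose 4.11-fold in the libraries labelled Ph RNAi, with q = 0.012 per the authors' deposited table. Of its 3 group means, that of the Ph RNAi libraries stood apart and the other two lay close together. For nrv2 the authors' means were 43172 in Ph RNAi libraries, 13505 in Sce RNAi libraries and 9296 in mock. The rise of nrv2 in the libraries labelled Ph RNAi was 4.64-fold, again with q = 0.012 per the authors' deposited table. The alpha and beta subunits of the pump, which must assemble to leave the endoplasmic reticulum, had similar ratios, although the mock signal per kilobase of Atpalpha was far above that of nrv2.

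Nrg, the lowest of the 9 per kilobase in mock, had authors' means of 83623 in Ph RNAi libraries, 17356 in Sce RNAi libraries and 12418 in mock. The 6.73-fold rise in the libraries labelled Ph RNAi had q = 0.012 per the authors' deposited table. Nrx-IV, which works beside Nrg in the junction, gave 78501 in Ph RNAi libraries, 74127 in Sce RNAi libraries and 80141 in mock, a ratio of 0.98 to mock with q = 0.589 after Ph RNAi per the authors' deposited table. The adhesion genes of the junction thus gave unlike ratios. PIP82, on the opposite strand and not analysed here, overlaps 11.4% of the gene model of Nrg, and CG32099 (eap in the table), on the same strand, overlaps 10.1% of that of Nrx-IV and was at 0.907 times mock after Ph RNAi per the authors' deposited table. The sources used here do not say whether reads of opposite strands were counted apart.

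**Figure D1:**
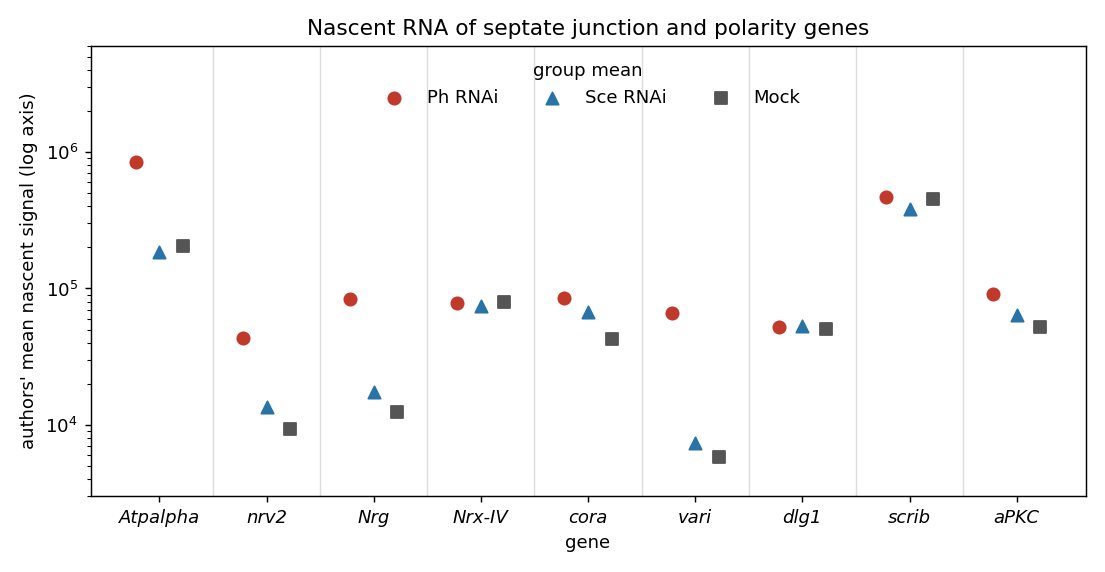
Authors' mean nascent signal (log axis) of the 9 genes, with a circle for Ph RNAi, a triangle for Sce RNAi and a square for mock, each the mean of a group. Atpalpha, nrv2, Nrg and vari stand above mock in the Ph RNAi group, from 4.11 to 11.3 times, while the 3 symbols of Nrx-IV, dlg1 and scrib lie close together.

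Among the scaffold genes the largest ratio was that of vari, whose product binds other septate junction components. Its authors' means were 66131 in Ph RNAi libraries, 7346 in Sce RNAi libraries and 5830 in mock. The ratio of 11.3 to mock did not pass, with a p of 0.029 and q = 0.159 per the authors' deposited table. So vari had the largest ratio of the 9 and, at the same time, a q above those of cora and aPKC. Pomp, on the opposite strand, overlaps 5.21% of the gene model of vari and was at 0.891 times mock after Ph RNAi per the authors' deposited table. The noncoding lncRNA:CR44146, on the opposite strand and not analysed here, overlaps 5.37% of that gene model. For cora, which links the membrane complex to the cytoskeleton, the authors' means were 84794 in Ph RNAi libraries, 67529 in Sce RNAi libraries and 42420 in mock. The ratio of cora after Ph RNAi was 2.00 with q = 0.076 per the authors' deposited table. The polarity kinase gene aPKC was close to it, with authors' means of 90953 in Ph RNAi libraries, 63459 in Sce RNAi libraries and 52571 in mock. Its ratio of 1.73 after Ph RNAi had q = 0.075 per the authors' deposited table. CG10257, on the opposite strand and not analysed here, overlaps 0.0648% of the gene model of aPKC.

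The scaffold genes dlg1 and scrib had nearly equal signal in the Ph RNAi and mock groups. For dlg1 the authors' means were 52539 in Ph RNAi libraries, 52823 in Sce RNAi libraries and 50131 in mock. For scrib they were 471070 in Ph RNAi libraries, 381068 in Sce RNAi libraries and 455187 in mock, so the Sce RNAi group was the lowest of the 3. The ratios of dlg1 and scrib after Ph RNAi were 1.05 and 1.03, with q = 0.408 and 0.57 per the authors' deposited table. A q this high does not show that their transcription was the same, and without values per library no interval can be put on either ratio. A Stalker transposable element on the same strand overlaps 10.7% of the gene model of scrib. The noncoding lncRNA:CR46084, on the opposite strand, overlaps 2.83% of it, and neither was analysed here. All 9 mock means were above the pseudocount, the lowest being 5830 for vari.

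The second question was the same for Sce. None of the 9 genes rose or fell in the libraries labelled Sce RNAi at q under 0.05 per the authors' deposited table, where 0.0656% of all genes rose and 0.0525% fell. At an unadjusted p under 0.05 in that table, 2 were higher (cora and nrv2) and 1 lower (scrib), and of all genes 4.62% were higher and 5.29% lower. Benjamini-Hochberg adjustment of the deposited p called 23 genes, as many as had a p listed at 0, and 0 members. No member had such a p, so this was not a second check. The largest ratio was that of cora, 1.59 with a p of 0.018 and q = 0.319 per the authors' deposited table. nrv2 stood at 1.45 and Nrg at 1.40 times mock, with q = 0.382 and 0.557 per the authors' deposited table. Below mock were Nrx-IV at 0.925, Atpalpha at 0.893 and scrib at 0.837, with q from 0.399 to 0.618 per the authors' deposited table. The median log2 ratio of the 9 was 0.27, against 0.0094 over all genes.

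Set against each other, the Ph RNAi mean exceeded the Sce RNAi mean 9.0-fold for vari, 4.82-fold for Nrg, 4.60-fold for Atpalpha and 3.20-fold for nrv2. For aPKC, cora, scrib and Nrx-IV the quotients were 1.43, 1.26, 1.24 and 1.06, and for dlg1 it was 0.995. No test of these differences could be made from group means, and both columns share the mock libraries when read as ratios. A rise that passed with one label and not with the other is thus not shown to differ between them.

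Total RNA, measured in other libraries, shows how far the nascent differences are seen in the RNA that cells hold. In total RNA labelled Ph RNAi, 5 of the 9 genes rose (Atpalpha, nrv2, Nrg, cora and aPKC) and 0 fell at q under 0.05 per the authors' deposited table, where 3.52% of all genes rose and 0.367% fell. At an unadjusted p under 0.05, 6 were higher and 0 lower, beside 13.9% and 4.7% of all genes. All 9 ratios were above 1, and their median log2 ratio was 1.16 against 0.068 over all genes. Nrg was at 3.06, Atpalpha at 2.54 and nrv2 at 2.10 times mock, with q = 0.028, 0.016 and 0.015 per the authors' deposited table. Each of these 3 had a smaller ratio in total RNA than in nascent RNA, a difference that was not tested.

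The polarity kinase gene aPKC went the other way: its total RNA ratio of 2.59 (q = 0.002 per the authors' deposited table) was above its nascent ratio of 1.73. For cora the ratio was 2.24 in total RNA with q = 0.046 per the authors' deposited table, and Benjamini-Hochberg adjustment of the deposited p no longer called it. vari again had the largest ratio, 4.95, and again did not pass (q = 0.154 per the authors' deposited table). The ratios of scrib, Nrx-IV and dlg1 were 1.43, 1.30 and 1.06, with q = 0.176, 0.224 and 0.531 per the authors' deposited table. Each gene that rose in nascent RNA, 3 of 3, rose in total RNA too, and these were 3 of the 5 that rose in total RNA. Among all genes, 58 rose in both kinds of RNA, 45.0% of the 129 nascent and 21.6% of the 268 total rises. Across the 9 genes the log2 ratios of nascent and total RNA after Ph RNAi had a Pearson r of 0.89 and a Spearman rho of 0.80, and across the 6942 genes with a mean nascent signal over 581 they had 0.61 and 0.36. These describe genes of the same group means, which are not independent replicates.

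**Figure D2:**
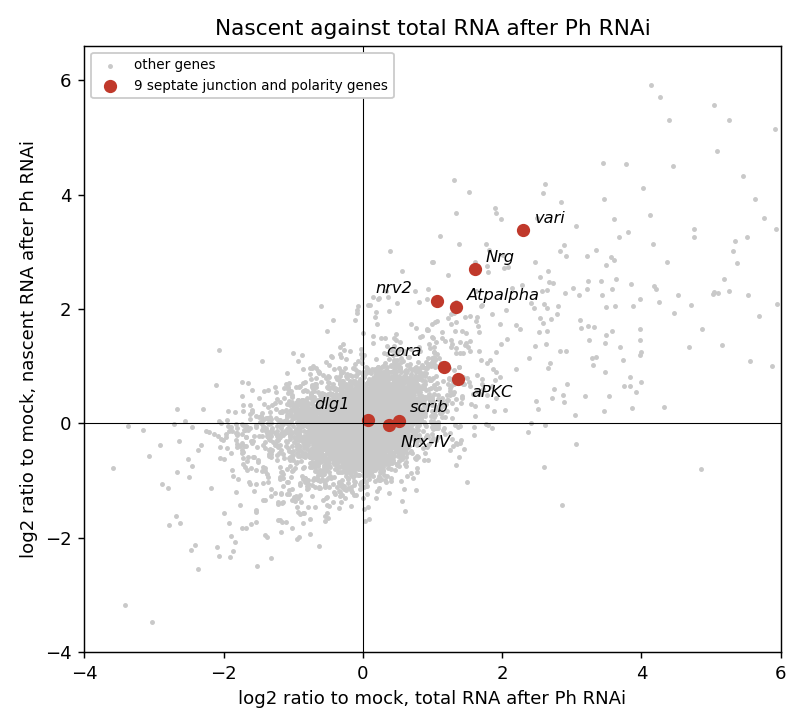
Log2 ratio to mock after Ph RNAi in nascent RNA (vertical) against total RNA (horizontal), with 1 point per gene for the 6942 genes with mean nascent signal over 581, of which 39 lie outside the axes, and the 9 genes in red. vari, Nrg, nrv2 and Atpalpha have nascent values of 2.03 and above, while cora and aPKC lie below them in nascent RNA, at 0.99 and 0.78, but in total RNA both (1.16 and 1.37) lie above nrv2 (1.07), and dlg1, Nrx-IV and scrib lie near 0 in nascent RNA.

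In total RNA labelled Sce RNAi, aPKC was the 1 gene of the 9 that rose, with a ratio of 1.6 and q = 0.018 per the authors' deposited table. Over all genes 0.236% rose and 0.0131% fell at that threshold, and at an unadjusted p under 0.05, where again aPKC alone was higher and 0 of the 9 lower, the shares were 9.27% and 2.3%. The call rests on a p listed at 0: read as 0.0005, the Benjamini-Hochberg value of no gene in the table is under 0.05. The other 8 ratios ran from 0.862 for nrv2 to 1.28 for Nrx-IV, with q from 0.319 to 0.609 per the authors' deposited table.

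In total RNA labelled Pc RNAi, aPKC and Nrg rose. The ratio of aPKC was 4.82 with q = 0.008, and that of Nrg 3.66 with q = 0.025, per the authors' deposited table. That makes 2 of 9 higher and 0 lower, beside 3.04% and 0.144% of all genes. At an unadjusted p under 0.05, 4 were higher and 0 lower, beside 11.8% and 2.62% of all genes. Atpalpha at 2.18 and nrv2 at 1.57 times mock both had a p of 0.003 and q = 0.058 per the authors' deposited table, close to the threshold. vari, which had the largest ratio in total RNA labelled Ph RNAi, was at 1.05 times mock in total RNA labelled Pc RNAi (q = 0.652 per the authors' deposited table). The remaining ratios were 1.35 for cora, 1.34 for Nrx-IV, 1.16 for dlg1 and 0.982 for scrib, with q from 0.33 to 0.665 per the authors' deposited table. Differences between the 3 total RNA comparisons were not tested.

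**Figure D3:**
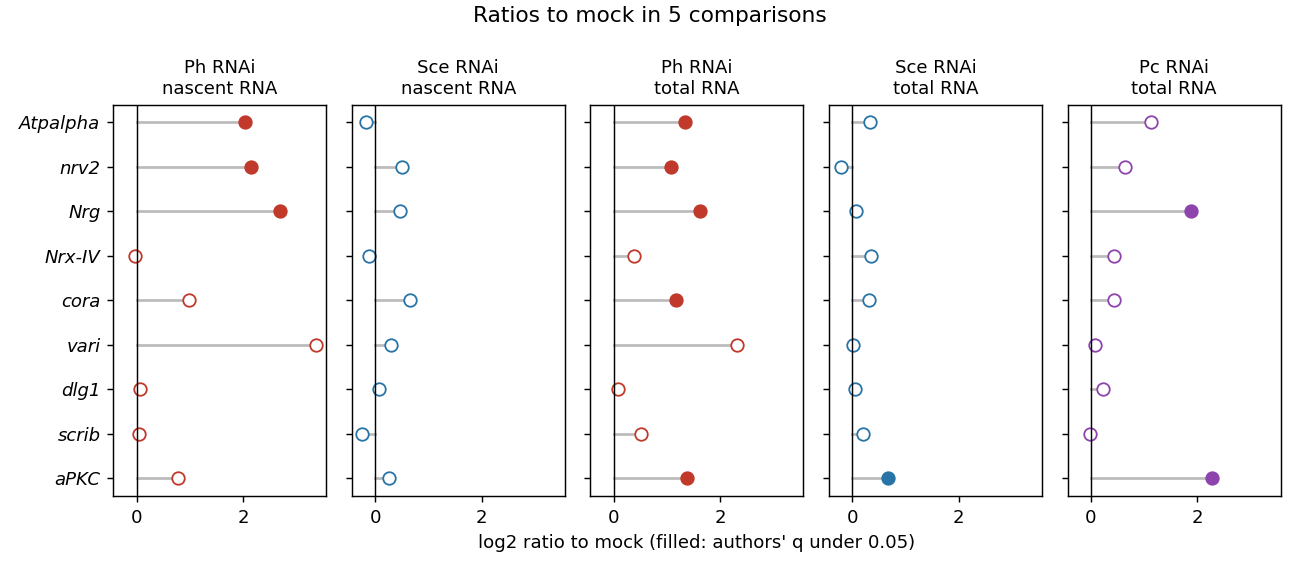
Log2 ratio to mock of each gene (rows) in the 5 comparisons (panels), filled where the authors' q was under 0.05, with the nascent ratios on a scale with a pseudocount of 581. Atpalpha, nrv2 and Nrg are filled in both Ph RNAi panels, aPKC in the 3 total RNA panels, and 0 genes in the panel of nascent RNA after Sce RNAi.

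By their 5 log2 ratios, the 9 genes fell into near and distant pairs. The closest were Nrx-IV and dlg1 at a Euclidean distance of 0.52, Nrx-IV and scrib at 0.53 and dlg1 and scrib at 0.61 log2 units. Next came the pump genes nrv2 and Atpalpha at 1.03, and Nrg and Atpalpha at 1.24. The most distant pair was vari and dlg1 at 4.00. Nrx-IV, dlg1 and scrib were called in no comparison, and genes with ratios near 1 lie close together by this measure. Among 3803 other genes with nascent signal above the median, those nearest to Atpalpha were Klp98A, a kinesin gene, at 0.44, S (Star), needed for EGF ligand processing, at 0.48, and mgl, an endocytic receptor gene, at 0.67. The genes nearest to nrv2 were CG1572 at 0.58, capu, an actin nucleator gene, at 0.60, and Ac76E, an adenylyl cyclase gene, at 0.67. For Nrg they were CG6357 at 1.08, osp at 1.10 and Fas2, another neural adhesion molecule of the immunoglobulin superfamily, at 1.10. Among these nearest genes mgl, Ac76E and osp rose in nascent RNA after Ph RNAi. The others had q from 0.053 to 0.096 there per the authors' deposited table. Fas2 had authors' means of 394754 in Ph RNAi libraries and 55366 in mock, 7.13 times, with q = 0.086 per the authors' deposited table. It is known from septate junctions as well as axons, but was counted in a list of adherens junction and adhesion genes and not among the other junction genes below.

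The nearest genes with values on either side of the 9 were examined to see whether a whole neighbourhood differed. Genes without values were passed over, so these neighbours need not be directly adjacent. Of these 18 neighbours, 1 on each side of each gene, 0 rose or fell in nascent RNA after Ph or Sce RNAi. Of all genes 1.69% rose and 0.787% fell after Ph RNAi, and 0.0656% and 0.0525% after Sce RNAi. In total RNA 3 rose with the Ph RNAi label (cad, nrv1 and rib), beside 3.52% of all genes. With the Pc RNAi label 2 rose (cad and nrv1), beside 3.04%. At an unadjusted p under 0.05 in nascent RNA, 2 were higher after Ph RNAi, beside 9.82% of all genes. After Sce RNAi 0 were higher, beside 4.62%, per the authors' deposited table. The 2 after Ph RNAi were nrv1 and cad. Counts this small do not show whether a neighbourhood differed. nrv1 encodes another beta subunit of the sodium pump and lies beside nrv2. It had authors' means of 66905 in Ph RNAi libraries, 38505 in Sce RNAi libraries and 33483 in mock, a ratio of 2.00 after Ph RNAi with q = 0.072 per the authors' deposited table. Its total RNA rose 2.62-fold with the Ph RNAi label (q = 0.035) and 2.00-fold with the Pc RNAi label (q = 0.026) per the authors' deposited table. The pump subunit genes named here, Atpalpha, nrv2 and nrv1, thus all had ratios above 1 with the Ph RNAi label. Of these, Atpalpha and nrv2 passed in nascent RNA and all 3 in total RNA. The nrv3 gene, also written on the list of other junction genes below, had no values.

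The homeobox gene cad (caudal), beside vari, had authors' means of 1716 in Ph RNAi libraries, 649 in Sce RNAi libraries and 329 in mock. Its nascent ratio of 5.22 after Ph RNAi had q = 0.059, and its total RNA rose 25.7-fold with the Ph RNAi label and 91.0-fold with the Pc RNAi label, per the authors' deposited table. Beside cora, the BTB transcription factor gene rib (ribbon) had a nascent mean of 842 in Ph RNAi libraries against 343 in mock, and an 85.6-fold rise in total RNA labelled Ph RNAi (q = 0.013 per the authors' deposited table). Both cad and rib had nascent mock means under 581, and the levels behind their total RNA folds were not used here. The neighbours of Nrg, which are Sptr and IntS4, had nascent ratios of 0.978 and 0.6 after Ph RNAi, and those of Atpalpha, CG5630 and Rlip, had 0.954 and 1.31, with q from 0.252 to 0.658 per the authors' deposited table. Around dlg1, scrib, aPKC and Nrx-IV the 8 neighbours had nascent ratios from 0.486 for CG6425 to 1.79 for ckn, with q from 0.222 to 0.584 per the authors' deposited table. Sptr beside Nrg and Gs2 beside dlg1 also had nascent mock means under 581, at 330 and 551, so their ratios compare low signals.

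Other genes of the junction, written down as a list beside the 9, gave other values. The table held 16 of 23 such genes. Of these, 0 rose or fell in nascent RNA after Ph RNAi at q under 0.05, with 2 higher (Fas3 and nrv1) and 0 lower at an unadjusted p under 0.05. Over all genes the shares were 1.69% and 0.787% at that q, and 9.82% and 6.66% at that p. The median log2 ratio of the 16 was -0.023, and 0.0083 over 17 genes with Fas2 added. Fas3, the septate junction adhesion molecule Fasciclin 3, had authors' means of 178536 in Ph RNAi libraries, 4694 in Sce RNAi libraries and 2841 in mock. Its ratio of 62.8, larger than that of any of the 9, had q = 0.057 per the authors' deposited table. By contrast Mcr, a thioester protein of the junction, and Cont (Contactin), which binds Nrg and Nrx-IV, were at 0.898 and 1.17 times mock with q = 0.383 and 0.337 per the authors' deposited table. After Sce RNAi 0 of the 16 passed in nascent RNA, where 0.0656% of all genes rose and 0.0525% fell. With an unadjusted p under 0.05, 0 were higher and 1 lower (M6), beside 4.62% and 5.29% of all genes. The median log2 ratio of the 16 after Sce RNAi was -0.14. In total RNA nrv1 was the 1 gene that passed, with the labels Ph RNAi and Pc RNAi, where 3.52% and 3.04% of all genes rose.

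Of 13 other polarity genes, all in the table, 1 rose and 0 fell in nascent RNA after Ph RNAi, beside 1.69% and 0.787% of all genes. The median log2 ratio of the 13 was 0.29. The 1 was gukh (GUK-holder), whose product binds those of dlg1 and scrib. It had authors' means of 246891 in Ph RNAi libraries, 71496 in Sce RNAi libraries and 149111 in mock. Thus gukh rose 1.66-fold in the libraries labelled Ph RNAi (q = 0.044) and fell to 0.48 of mock in those labelled Sce RNAi (q listed at 0) per the authors' deposited table, while its partners dlg1 and scrib passed in neither. In total RNA gukh rose 2.45-fold with the Ph RNAi label, with q = 0.011 per the authors' deposited table. baz (bazooka), the Par-3 homolog that binds aPKC, was at 1.57 times mock in nascent RNA after Ph RNAi, with q = 0.064, and rose 1.68-fold in total RNA labelled Pc RNAi, with q = 0.023, per the authors' deposited table. The apical determinant gene crb (crumbs) had nascent means of 8257 in Ph RNAi libraries against 1827 in mock (q = 0.053 per the authors' deposited table), and rose 5.94-fold in total RNA labelled Pc RNAi (q = 0.002 per the authors' deposited table).

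Among 11 other ion pump and transporter genes, Nhe2, a sodium/hydrogen exchanger gene, was the 1 that passed in nascent RNA, with a rise of 1.76-fold in the libraries labelled Ph RNAi and 1.68-fold in those labelled Sce RNAi (q = 0.031 and listed at 0 per the authors' deposited table). Over all genes 1.69% rose with the Ph RNAi label and 0.0656% with the Sce RNAi label. In total RNA Nhe2 was below mock with the Ph RNAi label, at 0.715 times (q = 0.245 per the authors' deposited table). With the Sce RNAi label it was at 1.46 times mock (q = 0.262 per the authors' deposited table). For these 11 genes the median log2 ratio in nascent RNA stood at 0.19 with the Ph RNAi label and at -0.029 with the Sce RNAi label. Among 10 further FERM and MAGUK scaffold genes 0 passed in nascent RNA after Ph or Sce RNAi. With an unadjusted p under 0.05, 1 and 2 were higher, beside 9.82% and 4.62% of all genes. The medians of the 10 were 0.24 and 0.23.

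**Figure D4:**
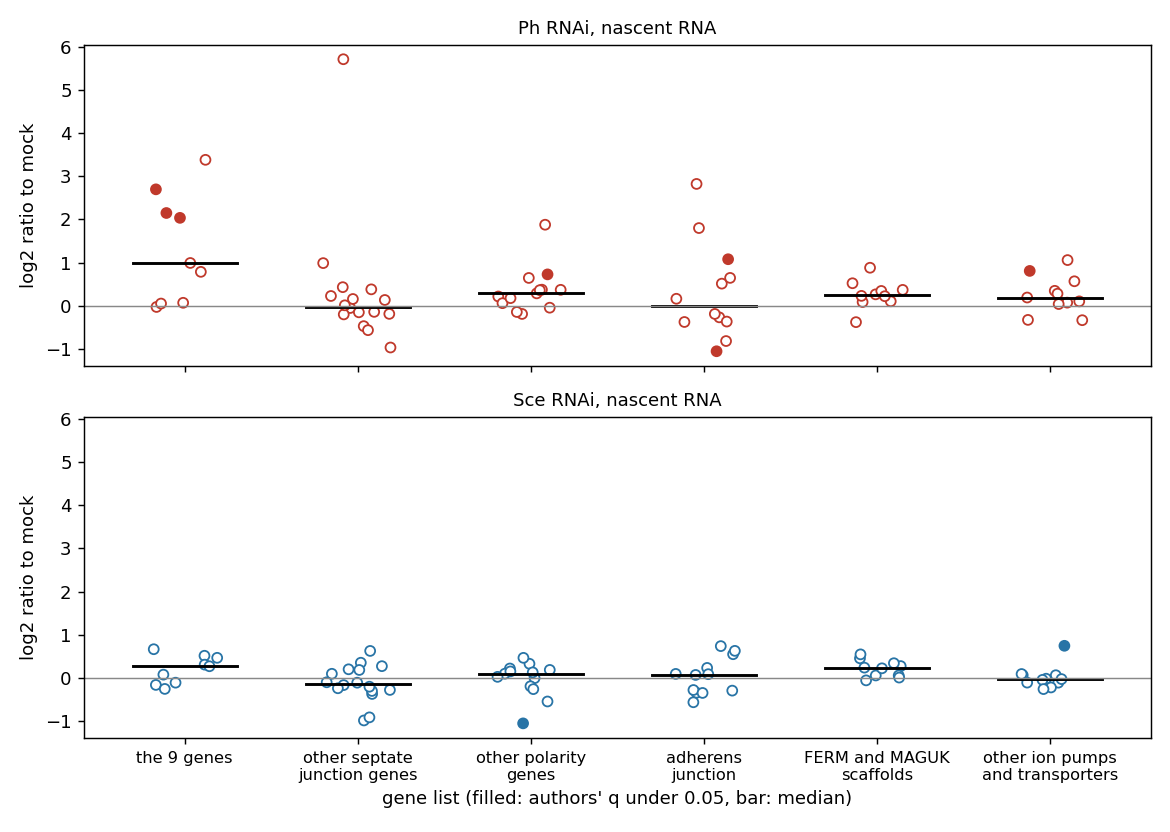
Log2 ratio to mock in nascent RNA after Ph RNAi (top) and Sce RNAi (bottom) for the 9 genes and 5 other lists, with 1 point per gene, filled where the authors' q was under 0.05, and a bar at the median. After Ph RNAi the 9 genes have a median of 0.99 and the medians of the other lists lie between -0.023 and 0.29, and the open point at the top of the other septate junction genes is Fas3.

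Markers of other cell types were read beside these values. Of the 11 glial marker genes 8 were measured, and 0 passed in nascent RNA after Ph RNAi, with 2 higher and 1 lower at an unadjusted p under 0.05. Over all genes 1.69% rose and 0.787% fell, and at that p 9.82% were higher and 6.66% lower. Of the 8, 6 had ratios below 1, and the median log2 ratio was -0.43. Their summed authors' means were nevertheless 193178 in Ph RNAi libraries, 119228 in Sce RNAi libraries and 115985 in mock, since repo and loco were higher. The glial transcription factor gene repo had nascent means of 41380 in Ph RNAi libraries, 1619 in Sce RNAi libraries and 2890 in mock (q = 0.127 after Ph RNAi per the authors' deposited table), and its total RNA rose 54.0-fold with the Ph RNAi label and 5.38-fold with the Pc RNAi label (q = 0.004 and 0.008 per the authors' deposited table). The G-protein regulator gene loco had nascent means of 102740 in Ph RNAi libraries, 58914 in Sce RNAi libraries and 44036 in mock (q = 0.065 after Ph RNAi per the authors' deposited table). The genes moody and Gli, which act in septate junctions of glia (Gli also stood on the junction list), were at 0.89 and 0.48 times mock after Ph RNAi, with q = 0.39 and 0.381 per the authors' deposited table. Of 11 blood cell markers 9 were measured. After Ph RNAi 3 had nascent ratios above 1 and 6 below, with a median log2 ratio of -0.48. With an unadjusted p under 0.05, 1 was higher and 5 lower, beside 9.82% and 6.66% of all genes. Ppn (papilin, an extracellular matrix gene) fell in nascent RNA after Ph RNAi, to 205507 in Ph RNAi libraries against 656683 in mock, with q = 0.044 per the authors' deposited table. Another matrix gene, vkg (a collagen IV chain), had a nascent ratio of 0.374 with q = 0.058 and rose 2.55-fold in total RNA labelled Pc RNAi with q = 0.038 per the authors' deposited table. The higher one was lz (lozenge), a transcription factor gene of crystal cells, with nascent means of 2909 in Ph RNAi libraries, 674 in Sce RNAi libraries and 239 in mock. Its ratio of 12.2 after Ph RNAi had q = 0.11, and its total RNA ratio of 61.4 had q = 0.127, per the authors' deposited table. The blood cell markers' summed means, mostly from the matrix genes vkg, Cg25C and Ppn, were 1616169 in Ph RNAi libraries, 4651803 in Sce RNAi libraries and 4243722 in mock. No marker of these lists was listed at 0. The part of such cells in the values of the 9 genes was not tested.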

How the data were processed

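Per the file headers, each nascent value deposited by the authors is the mean signal of a gene in one group, and each ratio divides it by the mock mean. SAMtools and bedtools are credited to the submitters' processing notes. Ratios of total RNA, and p-values and q-values for every comparison, were deposited by the authors with 3 decimals, so 0 stands for a value under 0.0005. No aligner, build, annotation, test or q-value procedure is stated in the sources used here. Depth is unknown. A further 4 columns, of total RNA means, match no sample and were not used. Deposited nascent ratios equalled the quotients of the means within 1% plus 0.001 for all 7624 genes. Replicates are numbered without naming cultures, so p-values may measure technical spread.

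Members and the 11 gene lists were chosen with earlier results of these data known. Calls are the authors' q under 0.05 over the whole table. Log2 nascent ratios used a pseudocount of 581 (10th percentile of the nascent means), which understates changes of low genes. Total RNA ratios had none. Named genes were the 9, the RNAi targets, list genes with q under 0.05 (in lists outside the junction and polarity, up to 4), overlapping and nearest neighbouring genes, and the 3 genes nearest to each member called in nascent RNA by Euclidean distance over 5 log2 ratios. Fas3, Mcr, Cont, M6, moody, Gli, elav, CadN, arm, loco, lz and Cg25C were named after their values were seen. The muscle markers sls, Mef2 and Act57B were also named outside these rules. Gene models came from Ensembl's BDGP6 annotation, for lengths and neighbours only, with older symbols matched through RefSeq synonyms. Python 3.11.15, pandas 2.3.3, NumPy 2.4.6 and matplotlib 3.10.9 were used, and the computations were tested on simulated data. Alternatives were other thresholds and adjustments, pseudocounts, scalings and lengths.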

Additional observations from a re-analysis of the deposited data

How the results depend on the processing

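A median was counted as moved where it shifted by over 0.1 log2 units, and a count where it changed by over 1.5 times. After Ph RNAi in nascent RNA, 5 members were called with q under 0.1 and 6 with an unadjusted p under 0.05, in place of 3. After Sce RNAi in nascent RNA, 3 had an unadjusted p under 0.05, in place of 0. In total RNA labelled Pc RNAi, 4 were called with q under 0.1 and likewise 4 with an unadjusted p under 0.05, in place of 2. In total RNA labelled Sce RNAi, 0 in place of 1 were called by Benjamini-Hochberg adjustment with a p of 0 read as 0.0005. Quantile normalization of the group means gave a median log2 ratio of 0.85 after Ph RNAi in nascent RNA, in place of 0.99. The median percentile of the 9 genes in mock per kilobase was 72.7, and 83.0 with merged exon lengths. The other alternatives for counts and medians stayed within these marks, with the exclusion of genes overlapped over 50% of their length leaving out none of the 9. Over all genes, a q under 0.1 called 534 in place of 189 after Ph RNAi and 20 in place of 9 after Sce RNAi in nascent RNA. In total RNA it called 699 in place of 296, 30 in place of 19 and 412 in place of 243 with the Ph, Sce and Pc RNAi labels. Benjamini-Hochberg adjustment after Sce RNAi in nascent RNA called 23 genes with a p of 0 read as 0, and 0 with it read as 0.0005. The members' log2 ratios shifted by over 0.1 in 8 cases with quantile normalization and in 6 with a pseudocount 10 times larger. Counting Fas2 with the other septate junction genes, an alternative chosen after seeing the data, gave medians of 0.0083 after Ph RNAi and -0.11 after Sce RNAi, in place of -0.023 and -0.14. No called gene of the 9 changed direction with quantile normalization, which was run for nascent RNA alone. A pseudocount added to both means cannot change a direction. Centring on all genes moved log2 ratios by at most 0.068, too little to reverse a called gene. No paired analysis was possible because the table holds group means, and for the same reason leaving out each replicate in turn was not run. The lack of values per library limits every ratio here to the authors' p and q.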

Other observations

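Adherens junctions are contacts on the apical side of the septate junction, and a list of their components and other adhesion genes gave mixed values. Of its 12 genes, all in the table, 1 rose and 1 fell in nascent RNA after Ph RNAi, beside 1.69% and 0.787% of all genes. The adhesion gene sdk (sidekick) rose 2.11-fold, with authors' means of 329349 in Ph RNAi libraries against 155902 in mock and q = 0.021 per the authors' deposited table. The neural cadherin gene CadN fell to 0.481 of mock, with authors' means of 415033 in Ph RNAi libraries against 863517 in mock and q = 0.036 per the authors' deposited table. In total RNA, Fas2, which is not a core component of adherens junctions and is known from septate junctions and axons, rose 5.55-fold and cno (canoe), a linker of junctions to actin, rose 3.08-fold with the Ph RNAi label, with q = 0.003 and 0.025 per the authors' deposited table. With the Pc RNAi label 4 of the 12 rose in total RNA, beside 3.04% of all genes: Fas2, sdk, shg and arm. Among these were shg, the epithelial cadherin gene, at 2.74-fold and arm, the beta-catenin gene, at 1.31-fold, with q = 0.03 and 0.041 per the authors' deposited table. The median log2 ratio of the 12 was -0.015 in nascent RNA and 0.55 in total RNA with the Ph RNAi label.

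Other rises in total RNA labelled Pc RNAi among the lists were those of Magi, a scaffold gene, at 2.00-fold and Ncc69, a sodium-potassium-chloride cotransporter gene, at 5.72-fold, with q = 0.014 and 0.007 per the authors' deposited table. Muscle markers had 3 of 8 genes in the table and summed to authors' means of 573196 in Ph RNAi libraries, 480481 in Sce RNAi libraries and 490581 in mock. The higher sum in Ph RNAi libraries came from sls, at 405181 against 288297 in mock. Mef2 was lower there, at 167956 against 202283 in mock, and Act57B was far under 581 in every group. The 2 of 8 fat body and germ line markers in the table summed to 1523 in Ph RNAi libraries, 2968 in Sce RNAi libraries and 3681 in mock. The 3 of 10 neuronal markers summed to 27730 in Ph RNAi libraries, 24851 in Sce RNAi libraries and 17701 in mock. Of these marker genes 0 had a q under 0.05 in the 5 comparisons of the authors' deposited table. Across the 5, from 0.0656% to 3.52% of all genes rose and from 0.0131% to 0.787% fell. At an unadjusted p under 0.05, 1 neuronal marker was higher in nascent RNA after Ph RNAi, 1 in nascent RNA after Sce RNAi and 1 in total RNA labelled Pc RNAi, and 1 muscle marker was higher in total RNA labelled Ph RNAi. In the same order, 9.82%, 4.62%, 11.8% and 13.9% of all genes were higher at that p.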
